A study of Homo sapiens with 36 samples.

Results

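The polyamine genes ODC1, AMD1, SRM and SMS (synthesis), OAZ1, OAZ2 and AZIN1 (antizymes and their inhibitor) and SAT1 (breakdown and export) were followed through ribosome footprints and RNA in 2 human cell models of transformation. They were chosen by gene symbol, so they are 8 of the 19137 genes in the deposited count tables. Each gene was represented by the transcript with the highest mean count over the 36 libraries. AMD1, AZIN1 and SMS have 2 transcripts in the tables, and those of AZIN1 carried equal counts in every library. In GRCh37 the synthesis genes lie at chr2:10580094-10588453 (ODC1), chr6:111195988-111216916 (AMD1), chr1:11114646-11120075 (SRM) and chrX:21958827-22012955 (SMS). The antizyme genes lie at chr19:2269519-2273489 (OAZ1) and chr15:64979772-64995480 (OAZ2), AZIN1 at chr8:103838536-103876391 and SAT1 at chrX:23801290-23804327.

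The first model was MCF10A-ER-Src, breast epithelial cells in which tamoxifen switches on a Src kinase through a fused oestrogen receptor domain. All groups of this model, uninduced ones included, carry the fusion. Groups in this model were cells given 1 µM 4-hydroxytamoxifen for 1, 4 or 24 h, and uninduced cells, which pool the library at 0 h with ethanol (vehicle) at 1, 4 and 24 h. The second model was the BJ skin fibroblast lines EH, EL and ELR, names left unexplained in the labels. As background, BJ series of this kind carry telomerase, then SV40 early-region genes, then an oncogenic Ras. Footprints were taken after 100 µg/ml cycloheximide for 90 s, which freezes ribosomes along a message, or else after harringtonine (2 µg/ml, 5 min), a drug that stops ribosomes as they start. There were 2 cycloheximide libraries for each tamoxifen time and each BJ line, 4 for uninduced ER-Src cells, and 1 RNA library for each tamoxifen time and each BJ line against 4 for uninduced ER-Src cells. Harringtonine libraries numbered 2 for each BJ line and 1 each for 0, 1, 4 and 24 h of tamoxifen. The 0 h footprint library is numbered replicate 1 and the ethanol ones replicate 2. The labels do not say that replicates came from separate cultures, so p-values may measure technical spread only. In bulk samples such as these, a change in the share of cells and a change per cell cannot be told apart.

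Polyamines (putrescine, spermidine and spermine) are small positively charged molecules that growing cells need, and cells hold their amounts steady by feedback on translation and protein stability. ODC1 makes putrescine from ornithine. AMD1 makes the decarboxylated S-adenosylmethionine that donates the group which SRM adds to make spermidine and SMS adds to make spermine. High polyamines make ribosomes shift frame on antizyme messages, and the full-length antizyme binds ODC1 and sends it to the proteasome. AZIN1 looks like ODC1, has no enzyme activity and draws antizyme away. SAT1 acetylates spermidine and spermine for export or oxidation. Upstream reading frames in the ODC1, AMD1 and AZIN1 messages, and a polyamine-dependent block on translation of SAT1, are known from earlier work.

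The frameshift site is shown because it is the element by which antizyme messages are translated in 2 frames. The 30 coding bases around it were read from GRCh37 at chr19:2271427-2271456 (plus strand, OAZ1) and chr15:64983700-64983729 (minus strand, OAZ2). Capitals mark the last codon of the first frame with its stop codon, where ribosomes shift forward by 1 base.
OAZ1: cctcggtggtgcTCCTGAtgcccctcaccc
OAZ2: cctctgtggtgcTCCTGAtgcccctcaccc
The windows agree at 29 of 30 bases and differ by G5T (OAZ1 base, position from the left end, OAZ2 base). In OAZ1 68 codons precede the shift, and in OAZ2 32 do. The deposited counts are totals per transcript, so footprints before and after the shift were not separated here.

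In ODC1 and SRM, both textbook targets of MYC, the promoter window from 250 bases before to 50 bases after the RefSeq start site (GRCh38.p14) holds the E-box CACGTG, which reads the same on both strands. It is shown in capitals for SRM at chr1:11060200-11060229 and for ODC1 at chr2:10448024-10448053, both on the minus strand. These bases lie 199 and 29 bases upstream of the start. The ODC1 window holds 2 matches, and the other begins 5 bases downstream of the start.
SRM: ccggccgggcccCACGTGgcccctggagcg
ODC1: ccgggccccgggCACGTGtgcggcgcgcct
Another ODC1 start site has no CACGTG in its window, and none was found in the windows of OAZ1, OAZ2, AMD1, SMS or SAT1. No window was searched for AZIN1. Of all 35116 windows, 7.26% hold it, so the match is a description only.

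Relative to RNA, the footprints of the 8 genes fell into 2 sides that were the same in both models. The spermidine synthase SRM and the antizymes OAZ1 and OAZ2 had more footprints than their RNA, and ODC1, AMD1, AZIN1, SMS and SAT1 had fewer. All 8 passed the test in both models, 3 higher and 5 lower, with a limit for SAT1 in BJ that is given below. The test was edgeR's quasi-likelihood test across all genes with Benjamini-Hochberg adjustment, and a gene is called here and below at an adjusted p under 0.05. Called in the same way were 79% of 10686 genes in the BJ lines (39.5% higher, 39.5% lower). In uninduced ER-Src cells 73.8% of 10058 genes were (37.5% higher, 36.3% lower), so the members' calls and directions are a description only. The share of all genes on the same side in both models was not counted. The agreement between models is therefore not set apart from that of genes at large. The members' median log2 ratio of footprints to RNA was −0.93 in BJ and −0.86 in ER-Src, beside −0.01 and 0.03 over all genes tested.

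**Figure D1:**
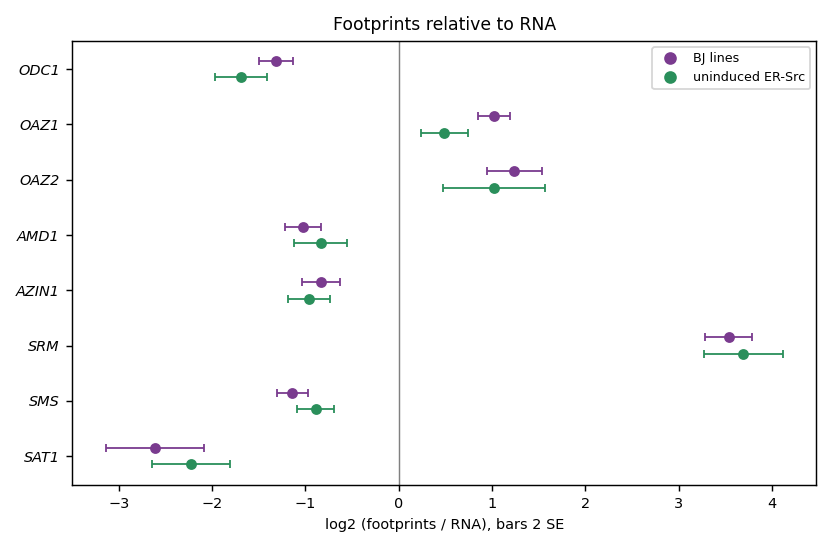
Log2 ratio of cycloheximide footprints to RNA (x axis) for the 8 genes (rows) in the BJ lines (6 footprint and 3 RNA libraries, upper point of each row) and uninduced ER-Src cells (4 and 4, lower point). Points are edgeR estimates and bars are 2 SE. SRM sits alone at 3.54 and 3.69, and SAT1 is the lowest at −2.61 and −2.23. SAT1 footprints in BJ did not pass the filter on low counts on their own.

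SRM had the widest gap. In uninduced ER-Src cells its footprints were 261.7, 266, 355 and 367 CPM (a count scaled to the size of its library), against RNA of 14.1, 23.8, 31.4 and 35.7 CPM. In the BJ lines its footprints lay between 178 and 238 CPM, against RNA of 15.3 to 21.5 CPM. No footprint library came near an RNA library. The log2 ratio was 3.54 ± 0.13 (SE) in BJ (adjusted p = 7.23e-15) and 3.69 ± 0.21 in ER-Src (adjusted p = 4.90e-10). SRM ranked 218 of 10686 and 133 of 10058 genes from the top. The coding sequence of SRM has 61.8% GC, and 14.1% of the BJ genes and 13.2% of the ER-Src genes with a value have more. Across genes, which are not independent replicates, the ratio had a Spearman correlation of 0.49 with coding GC in BJ and 0.44 in ER-Src, and of −0.54 and −0.57 with coding length. Footprint and RNA libraries were built by different kits, and the part of base composition, length and kit in these ratios was not tested.

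OAZ1 footprints were 344 to 399 CPM in the BJ lines, against RNA of 179 to 232 CPM, with no overlap. In uninduced ER-Src cells they were 178 to 275 CPM, against 157 to 183 CPM, and these ranges overlapped. The log2 ratio was 1.02 ± 0.09 in BJ (adjusted p = 2.59e-09) and 0.49 ± 0.13 in ER-Src (adjusted p = 0.00290). OAZ2, the less abundant antizyme, had log2 ratios of 1.24 ± 0.15 (adjusted p = 2.42e-07) and 1.02 ± 0.27 (adjusted p = 0.00347). Its counts were low, with footprints of 18.6 to 28.6 CPM against RNA of 7.21 to 21.3 CPM in uninduced ER-Src cells.

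ODC1 is the case of abundant RNA with few footprints. Uninduced ER-Src cells had 205 to 329.8 CPM of footprints, against 893 to 1030.0 CPM of RNA, and no library of one kind reached the other. The log2 ratio was −1.32 ± 0.09 in BJ (adjusted p = 8.64e-11) and −1.69 ± 0.14 in ER-Src (adjusted p = 3.35e-08). SAT1 was lower still, at −2.61 ± 0.26 (adjusted p = 2.56e-08) and −2.23 ± 0.21 (adjusted p = 1.29e-07), which placed it above 4.24% of BJ genes and 5.20% of ER-Src genes. In BJ its footprints alone did not pass the filter on low counts, with 38 counts over 6 libraries. It was tested there together with RNA of 94, 39 and 40 counts in EH, EL and ELR. Entry by way of RNA favours a low ratio, so the BJ p-value and rank of SAT1 are not read as support. SMS, AMD1 and AZIN1 lay between −1.14 and −0.83 in both models. Of the 3, SMS had −1.14 ± 0.08 in BJ and −0.89 ± 0.10 in ER-Src.

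The same counts, given as levels per kilobase of coding sequence, put the genes on a common scale. How reads were counted over each transcript is not given, so the order between genes is approximate and is no separate evidence. In BJ footprints OAZ1 led with 552 CPM per kb, followed by SRM with 229, ODC1 with 133 and SMS with 115 CPM per kb, and SAT1 was last with 6.70. In BJ RNA ODC1 led with 369 CPM per kb, followed by OAZ1 with 294 and SMS with 275, and SRM was last with 20.8 CPM per kb. Among ER-Src footprints the order depended on the arm. At 24 h of tamoxifen OAZ1 led with 467.5 CPM per kb, followed by ODC1 with 225, SAT1 with 216 and SRM with 189, while in uninduced cells SRM led with 344 CPM per kb, followed by OAZ1 with 316 and ODC1 with 196. Over all ER-Src RNA libraries ODC1 led (741 CPM per kb). SAT1 differed most between models, with 88.7 CPM per kb of footprints over all ER-Src libraries and 6.70 in BJ cells. Its 10 ER-Src footprint libraries (22.4 to 116 CPM) all lay above its 6 BJ ones (1.07 to 6.11 CPM).

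**Figure D2:**
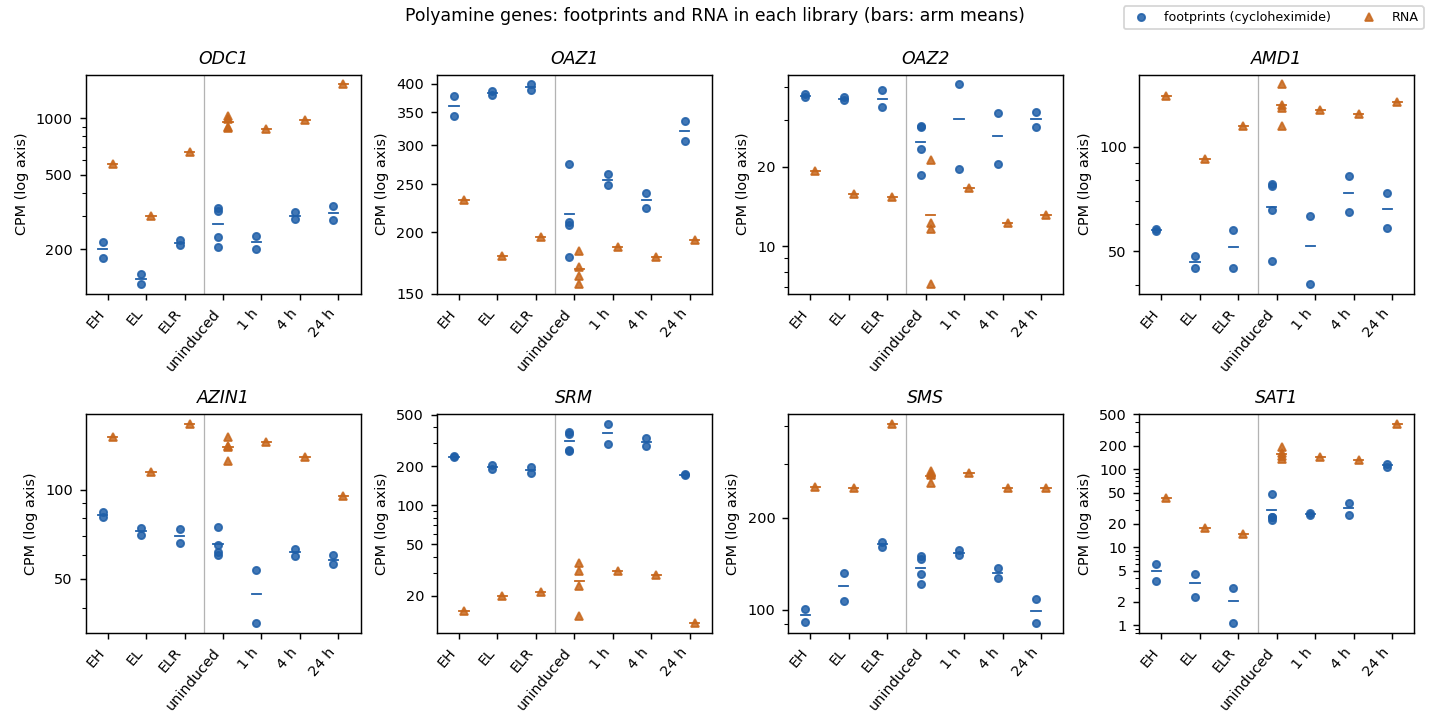
CPM (log axis) of each gene in every cycloheximide footprint library (circles) and RNA library (triangles), by BJ line and by ER-Src arm; short bars are arm means. SAT1 footprints stand at 107 and 116 CPM at 24 h, and SRM footprints lie above its RNA throughout.

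At 1 and 4 h of Src induction no polyamine gene passed the test. None of 8 was called in footprints, RNA or ribosome loading (the change in footprints beyond that in RNA), where 0.0196%, 0.00942% and 0% of all genes were called at 1 h and 0.854%, 0.16% and 0% at 4 h. At an unadjusted p under 0.05 there was 1 member at 1 h in footprints and 1 in loading, both AZIN1, and none elsewhere, and DESeq2 called none. Among all genes 795 of 10193 reached that level in 1 h footprints and 557 of 12143 in 1 h loading, so 1 of 8 is a description only. Footprints of AZIN1 at 1 h were 35.5 and 53.5 CPM, against 60.4, 61.4, 64.8 and 74.9 CPM in uninduced cells, with a log2 change of −0.55 ± 0.18 (adjusted p = 0.535). The members' footprint changes ran from −0.55 to 0.28 at 1 h and from −0.10 to 0.15 at 4 h.

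At 24 h SAT1 and OAZ1 rose in footprints and SRM and SMS fell, and SAT1 and ODC1 rose in RNA. The 4 footprint calls of 8 compare with 14.6% of 10193 genes (8.8% higher, 5.84% lower), and the 2 RNA calls of 8 with 6.47% of 10612 genes (4.67% higher). The members' median log2 change was 0.09 in footprints and 0.01 in RNA, beside −0.01 and −0.02 over all genes tested. The sum of 7 breast epithelial markers was 12205 to 13695 CPM in 24 h footprints, against 8850 to 11424 CPM in uninduced cells. The fibroblast sum was 978 to 989 CPM, against 1346 to 1652 CPM, and the leukocyte sum 31.7 to 47.4 CPM, against 10.4 to 24.7 CPM. None of these ranges overlapped. In single harringtonine libraries the epithelial sum was 14258 CPM at 24 h, against 18311 CPM at 0 h. The part of these markers in the changes at 24 h was not tested.

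SAT1, the acetylating enzyme, moved most. Its footprints were 116 and 107 CPM at 24 h, against 22.4, 24.0, 24.6 and 47.9 CPM in uninduced cells. Both induced libraries lay above all 4 uninduced ones, of which the ethanol library of 24 h was the highest. The log2 change was 1.85 ± 0.24 (adjusted p = 5.49e-05), a 3.60-fold rise. SAT1 RNA was 379.8 CPM at 24 h, against 134, 145, 161 and 190.4 CPM, again highest in the 24 h ethanol library, with a log2 change of 1.26 ± 0.18 (adjusted p = 0.000420). Against the 24 h ethanol library alone, an alternative added after the data were seen, the changes were 1.22 (adjusted p = 0.00158) in footprints and 0.99 (adjusted p = 0.000355) in RNA, and both stayed called. The loading change was 0.53 ± 0.34 (adjusted p = 0.905), whose interval of 2 SE ran from −0.14 to 1.21.

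OAZ1 footprints were 336 and 306 CPM at 24 h, against 178, 206, 209.5 and 275 CPM in uninduced cells, with no overlap. The log2 change was 0.56 ± 0.15 (adjusted p = 0.0193). OAZ1 RNA had 193 CPM at 24 h, against 157 to 183 CPM, with a change of 0.19 ± 0.16 (adjusted p = 0.575). The 24 h ethanol library was the 275 CPM one. Against it alone the footprint change of OAZ1 was 0.23 (adjusted p = 0.508) and no longer called. The call was also lost without tamoxifen replicate 1 (0.51, adjusted p = 0.157), without replicate 2 (0.64, adjusted p = 0.0762) or without ethanol at 4 h (0.54, adjusted p = 0.0545). The other antizyme, OAZ2, had 32.3 and 28.3 CPM, against 18.6 to 28.6 CPM, and was not called (0.29 ± 0.27).

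SRM footprints were 174 and 170.4 CPM at 24 h, against 261.7, 266, 355 and 367 CPM in uninduced cells. The groups did not overlap and the log2 change was −0.86 ± 0.18 (adjusted p = 0.00376). SRM RNA was 12.4 CPM (34 counts), against 14.1 to 35.7 CPM, and was not called (−1.09 ± 0.45, adjusted p = 0.201). The lowest of these uninduced values was ethanol at 24 h, and without that library the RNA change of SRM was −1.29 and called (adjusted p = 0.00754). Against the 24 h ethanol library alone, the SRM changes were −0.62 in footprints (adjusted p = 0.103) and −0.19 in RNA (adjusted p = 0.890), and without tamoxifen replicate 2 the footprint change was −0.84 (adjusted p = 0.0631).

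SMS footprints were 108 and 90.5 CPM at 24 h, against 122, 131, 147 and 149.9 CPM in uninduced cells, again with no overlap. The log2 change was −0.47 ± 0.14 (adjusted p = 0.0299). SMS RNA stood at 251 CPM against 260.3 to 286 CPM (−0.14 ± 0.15, not called). The SMS call was lost in 6 of 12 distinct alternatives, among them DESeq2 (adjusted p = 0.0517) and the 24 h ethanol library alone (−0.30, adjusted p = 0.381). It was also lost without tamoxifen replicate 1 (−0.58, adjusted p = 0.0643) or replicate 2 (−0.32, adjusted p = 0.349), without ethanol at 4 h (−0.43, adjusted p = 0.0744) and without the 0 h library, which leaves ethanol alone as uninduced cells (−0.43, adjusted p = 0.0629).

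ODC1 rose in RNA and was not called in cycloheximide footprints. Its RNA was 1515 CPM at 24 h, against 893, 899.6, 993 and 1030.0 CPM in uninduced cells, and it lay above all 4. The RNA change was 0.66 ± 0.14 (adjusted p = 0.00869). ODC1 footprints were 287 and 338 CPM, against 205, 231, 321 and 329.8 CPM, so the groups overlapped (0.20 ± 0.18, adjusted p = 0.497). Footprints per RNA, as the ratio of mean CPM, were 0.206 at 24 h and 0.285 in uninduced cells. The test of that difference gave −0.49 ± 0.24 (adjusted p = 0.806), with an interval of 2 SE from −0.97 to −0.004. The harringtonine footprints of ODC1, in single libraries and without a test, were 43.6, 71.8, 148 and 197 CPM at 0, 1, 4 and 24 h (9, 13, 27 and 84 counts), highest at 24 h. Against the 24 h ethanol library alone, where ODC1 footprints were lowest, the footprint change was 0.62 and still not called. The RNA change against that library was 0.75 and the loading change −0.20, so the gap between the assays depended on the uninduced libraries used.

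AMD1 and AZIN1 were called in neither assay at 24 h. The estimates for AMD1 were −0.03 ± 0.21 in footprints and 0.03 ± 0.18 in RNA. AZIN1 RNA was 95.6 CPM, against 125 to 151 CPM, below all 4 uninduced libraries (−0.55 ± 0.18, adjusted p = 0.102), and without ethanol at 24 h its change of −0.59 was called (adjusted p = 0.0132). Against the 24 h ethanol library alone the RNA change of AZIN1 was smaller, at −0.39, and not called. AZIN1 footprints were 56.0 and 60.2 CPM, against 60.4 to 74.9 CPM (−0.17 ± 0.16). In ribosome loading none of 8 members was called at 24 h, nor at an unadjusted p under 0.05 nor by DESeq2, beside 0.618% of 12143 genes.

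**Figure D3:**
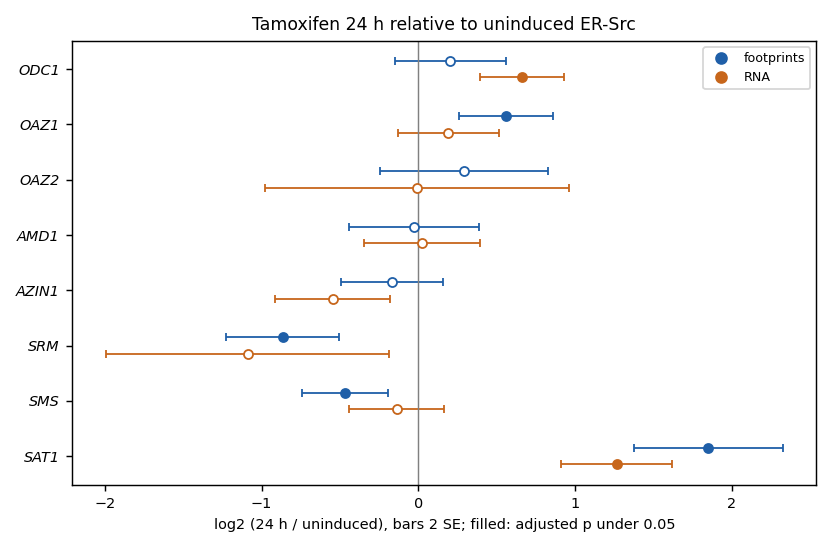
Log2 change at 24 h of tamoxifen relative to uninduced ER-Src cells (x axis) in footprints (upper point of each row; 2 against 4 libraries) and RNA (lower point; 1 against 4). Bars are 2 SE, and filled points have an adjusted p under 0.05. SAT1 is at 1.85 and 1.26, while ODC1 is filled in RNA alone.

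Across the BJ lines ODC1 was lowest in EL, SMS rose at each step and SRM was lower in EL and ELR than in EH. EL differed from EH in 3 of the 7 members tested, beside 41.5% of 9996 genes (19.1% higher, 22.4% lower). ELR differed from EL in 2 of 7, both higher, beside 36.1% (17.4% higher, 18.7% lower), and from EH in 3 of 7, beside 53.4%. These shares are near or below the background, so only the genes and their sizes are given. The comparisons share lines: EL enters both the EL to EH and the ELR to EL comparison. SAT1 did not pass the filter on low counts in BJ footprints, with 12 counts in EH, 16 in EL and 10 in ELR over both libraries of each. The sum of 8 fibroblast markers moved with the lines. It was 14759 to 14799 CPM in EL and 10660 to 10871 CPM in ELR, against 41269 to 41692 CPM in EH, and its part in the changes below was not tested.

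ODC1 footprints were 147 and 131 CPM in EL, against 219 and 180.3 CPM in EH. In ELR they were 209 and 223 CPM, against the same EL values. Each pair of lines was separate except ELR and EH, whose values interleaved. The log2 change was −0.50 ± 0.09 for EL over EH (adjusted p = 6.79e-06), 0.65 ± 0.08 for ELR over EL (adjusted p = 1.19e-10) and 0.15 ± 0.09 for ELR over EH (adjusted p = 0.139; 0.30 and called at 0.0319 without EH replicate 1). The fall in EL was not called when the spread was taken from all 16 cycloheximide libraries (adjusted p = 0.0614), while the higher level in ELR over EL was (adjusted p = 0.0283).

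ODC1 RNA moved the same way and further in these single libraries. Its level was 573 CPM in EH, 300.8 CPM in EL and 659 in ELR. The ratio of EL to EH was 0.525 (95% exact interval 0.477 to 0.577, counting error only) and that of ELR to EL was 2.19 (2.00 to 2.40). Past 1.5-fold in RNA were 30% of genes for EL over EH and 24.5% for ELR over EL. Footprints per RNA of ODC1 were 0.349 in EH, 0.461 in EL and 0.328 in ELR. In the fit over both models the loading change of ODC1 was 0.48 ± 0.31 for EL over EH (adjusted p = 0.818) and −0.46 ± 0.31 for ELR over EL (adjusted p = 1.00). Fitted within the BJ libraries, where RNA borrows the small spread of the footprint pairs, it was 0.44 (adjusted p = 0.0136) and −0.54 (adjusted p = 0.000569). The call depended on which of these fits was used.

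SMS footprints were 101 and 91.1 CPM in EH, 132 and 107 CPM in EL and 167 and 161 CPM in ELR, with no overlap between lines. The log2 change was 0.35 ± 0.12 for EL over EH (adjusted p = 0.0123), 0.48 ± 0.09 for ELR over EL (adjusted p = 4.76e-06) and 0.83 ± 0.11 for ELR over EH (adjusted p = 1.37e-09). The first of these was lost in 4 of 10 alternatives, among them leaving out EL replicate 1 (0.19, adjusted p = 0.293) or EH replicate 2 (0.30, adjusted p = 0.126), and the others were called in all 10. SMS RNA was at 253 CPM in EH, 250.1 CPM in EL and 406 in ELR. Its ratio was 0.9898 for EL over EH (interval 0.879 to 1.11) and 1.63 for ELR over EL (1.47 to 1.80).

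SRM footprints were 206 and 192 CPM in EL and 196 and 178 CPM in ELR, against 237 and 238 CPM in EH. EL and ELR both lay below EH. The log2 change was −0.22 ± 0.08 for EL over EH (adjusted p = 0.0221) and −0.28 ± 0.08 for ELR over EH (adjusted p = 0.00322). DESeq2 called neither (adjusted p = 0.182 and 0.0561). Leaving out 1 library ended the EL call for EH replicate 1 (adjusted p = 0.0969), EH replicate 2 (0.123) and EL replicate 2 (0.154), and the ELR call for ELR replicate 2 (0.0580). SRM RNA ran the other way in single libraries, at 19.9 CPM in EL and 21.5 CPM in ELR, against 15.3 CPM in EH, but the interval of each ratio to EH included 1 (0.815 to 2.10 for EL).

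OAZ1 footprints were 399 and 389 CPM in ELR, against 378 and 344 CPM in EH, a log2 change of 0.18 ± 0.06 (adjusted p = 0.0136). DESeq2 did not call it (adjusted p = 0.108), nor was it called without EH replicate 2 (adjusted p = 0.168) or ELR replicate 1 (adjusted p = 0.0756). OAZ1 RNA was 196 CPM in ELR and 179 CPM in EL, against 232 CPM in EH, a ratio of 0.772 for EL over EH (interval 0.675 to 0.881). Within the BJ libraries its loading rose by 0.49 for EL over EH (adjusted p = 0.00362) and 0.37 for ELR over EH (adjusted p = 0.0313), while the fit over both models gave 0.53 ± 0.27 (adjusted p = 0.693) and 0.48 ± 0.27 (adjusted p = 0.691). OAZ2, AMD1 and AZIN1 were not called in footprints between any pair of lines, with changes from −0.27 to 0.19. AZIN1 RNA was 167 CPM in ELR, against 115 CPM in EL (ratio 1.45, interval 1.24 to 1.70), beside footprints of 74.0 and 66.2 CPM in ELR and 70.3 and 74.4 CPM in EL. Its loading change of −0.54 ± 0.27 for ELR over EL was called within the BJ libraries (−0.61, adjusted p = 0.0224) and not in the fit over both models. In that fit no member was called in loading in any line pair, nor at an unadjusted p under 0.05 nor by DESeq2, beside 0.0576% of genes for EL over EH, 0.0165% for ELR over EL and 0.494% for ELR over EH.

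**Figure D4:**
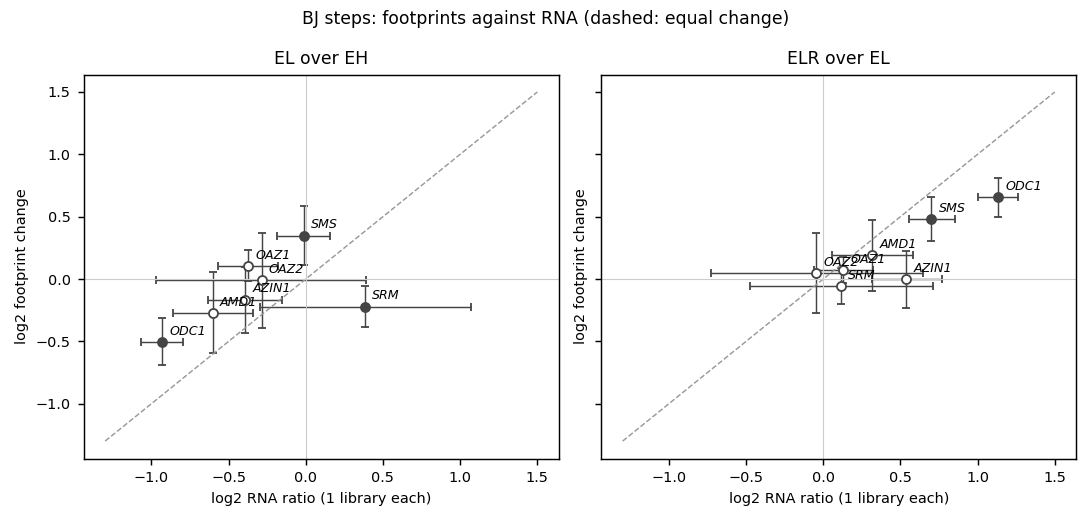
Log2 change in footprints (y axis, bars 2 SE) against the log2 RNA ratio of single libraries (x axis, bars 95% exact counting intervals) for the 7 members tested, for EL over EH (left) and ELR over EL (right). Filled points have an adjusted p under 0.05 in footprints, and the dashed line marks equal change. ODC1 is at −0.50 against −0.93 on the left and at 0.65 against 1.13 on the right.

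SAT1 RNA in the BJ lines was 17.6 CPM in EL and 14.6 CPM in ELR, against 42.2 CPM in EH. The ratio of EL to EH was 0.418 (interval 0.280 to 0.613) and that of ELR to EH 0.346 (0.233 to 0.506). Its footprints were 2.29 and 4.57 CPM in EL and 3.02 and 1.07 CPM in ELR, against 6.11 and 3.68 CPM in EH. These values overlap, and at 10 to 16 counts a line no difference was detectable at this depth.

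Relative to cycloheximide, OAZ1 was the one member called higher under harringtonine in both models, while ODC1, SMS, AZIN1 and SRM were lower in both. From the top, OAZ1 ranked 1597 of 8364 genes in BJ and 2007 of 8997 in ER-Src. In BJ 5 of 7 members tested were called, beside 64.3% of 8364 genes (29.9% higher, 34.3% lower), and in ER-Src 6 of 8, beside 55.6% of 8997 genes (26.9% higher, 28.7% lower). Most genes were called, so the number of member calls is a description only. OAZ1 was at 673 to 844 CPM in 6 harringtonine libraries of the BJ lines, against 344 to 399 CPM in the cycloheximide ones, with no overlap. The log2 difference was 1.14 ± 0.07 in BJ (adjusted p = 6.34e-26) and 0.92 ± 0.16 in ER-Src. In the BJ lines ODC1 had at most 115 CPM under harringtonine, against 131 to 223 CPM under cycloheximide. In ER-Src cells it had 43.6 to 197 CPM, against 201 to 290 CPM in the cycloheximide libraries compared, which are those of replicate 1. The log2 difference of ODC1 was −1.54 ± 0.18 in BJ (adjusted p = 5.61e-12) and −1.06 ± 0.21 in ER-Src. SMS differed by −1.35 ± 0.20 and −1.13 ± 0.23.

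Harringtonine counts of most members were low. ODC1 had 1 to 14 counts and SMS 1 to 13 in each BJ library, and SRM had 10 to 27. OAZ2 had 4 to 10 counts in each BJ harringtonine library and 1 to 5 in each ER-Src one, with a log2 difference of 0.30 ± 0.26 in BJ, not called, and −1.13 ± 0.40 in ER-Src, which was lost in 5 of 12 alternatives. Those were DESeq2 and leaving out the 1 h harringtonine (−0.87), 1 h cycloheximide (−0.84), 24 h harringtonine (−0.99) or 24 h cycloheximide library (−1.03). SRM differed by −0.72 ± 0.14 in BJ and −0.44 ± 0.17 in ER-Src. The second was lost with DESeq2 and without any of the 1 h and 4 h libraries of either drug (−0.40 to −0.38). AMD1 was not called in either model (−0.12 ± 0.25 and −0.15 ± 0.27). Harringtonine libraries held fewer counts than cycloheximide libraries, and the counts are totals per transcript, so these are not heights of start peaks.

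**Figure D5:**
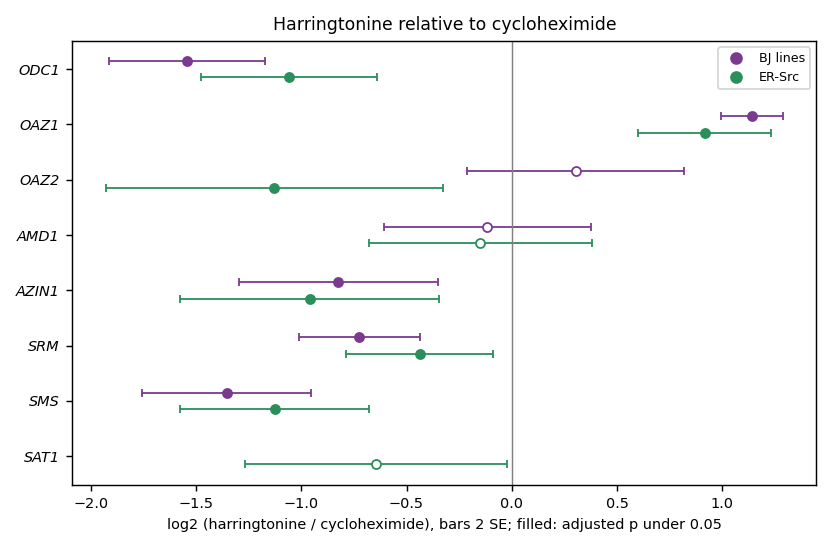
Log2 difference of harringtonine over cycloheximide footprints (x axis) in the BJ lines (upper point of each row; 6 against 6 libraries) and ER-Src cells (lower point; 4 against 4). Bars are 2 SE, filled points have an adjusted p under 0.05, and SAT1 was not tested in BJ. OAZ1 is the one member right of zero in both models.

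Among 27 other genes of polyamine supply, use and control, the BJ lines differed in many, as they did among all genes. For ELR over EH 11 of 22 tested genes were higher and 5 lower in footprints, beside 25.5% and 27.8% of all genes. ATP13A3, a polyamine transporter, had 219 and 202 CPM in ELR, against 87.8 and 92.9 CPM in EH (1.29 ± 0.10, adjusted p = 5.97e-18). EIF5A, the protein that carries the spermidine-derived hypusine, rose by 0.52 ± 0.05 (adjusted p = 1.02e-15). DOHH (0.59) rose too. In the methionine salvage and SAM supply group, MTAP (0.71), MRI1 (1.20) and APIP (1.02), which recycle the by-product of SRM and SMS, and MAT2B (0.41), a subunit of the enzyme that makes S-adenosylmethionine, rose, and none of the 7 fell. SAT2 (0.91), ARG2 (1.63) and MAX (0.98) rose, while ATP13A2 (−1.302), OAT (−0.48) and EIF4E (−0.56) fell. The ARG2 value rests on low counts, 2 and 2 in the EH libraries and 13 and 10 in ELR. MYC footprints were 115 and 111 CPM in ELR, against 63.4 and 66.2 CPM in EH (0.87 ± 0.13, adjusted p = 1.96e-08). The amino acid transporter chain SLC3A2 and the arginine transporter SLC7A1 fell, by 1.46 and 0.88 on the log2 scale. For EL over EH 7 of 22 rose and 6 fell, beside 19.1% and 22.4% of all genes. Those that rose were SAT2 (0.80), EIF5A (0.43), MTAP (0.47), APIP (0.82), MAT2B (0.36), MYC (0.34) and MAX (0.83). The 6 that fell were SMOX (−1.09), MAT2A (−0.39), OAT (−0.23), SLC7A1 (−0.94), SLC3A2 (−0.95) and EIF4E (−0.59). For ELR over EL 6 of 22 rose and 2 fell, beside 17.4% and 18.7% of all genes. Those that rose were ATP13A3 (1.06), EIF5A2 (0.71), DHPS (0.29), MRI1 (0.76), MAT2A (0.38) and MYC (0.53), while OAT (−0.24) and SLC3A2 (−0.51) fell. SLC3A2 was the one related gene called in loading in any line pair (−1.39 ± 0.30, adjusted p = 0.0343), with RNA of 218 CPM in ELR against 221 CPM in EH.

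Between assays, footprints were higher than RNA for 16 of 24 related genes in BJ and lower for 3, beside 39.5% and 39.5% of all genes. In uninduced ER-Src cells these counts were 13 and 3 of 21, beside 37.5% and 36.3%. ATP13A3 (−1.90 in BJ and −2.10 in ER-Src), MAX and APIP were the lower ones in both, and DOHH (3.87 and 2.58), SAT2 (1.23 and 1.55) and SLC7A1 (2.19 and 2.67) were among the higher ones. Harringtonine counts were above cycloheximide ones for 5 of 21 related genes in BJ and below for 7, beside 29.9% and 34.3% of all genes. In ER-Src they were above for 5 of 21 and below for 8, beside 26.9% and 28.7%. These shares are near the background, so the counts are a description only. ATP13A3, EIF5A and MYC were higher in both models.

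At 24 h of Src induction 3 of 21 related genes tested rose in footprints and 4 fell, beside 8.8% and 5.84% of all genes. SMOX, the spermine oxidase, was at 17.7 and 19.95 CPM at 24 h, against 3.94 to 7.03 CPM in uninduced cells (1.70 ± 0.28, adjusted p = 0.000568). ATP13A3 was at 300.3 and 228 CPM, against 125, 138, 157 and 160.0 CPM (0.86 ± 0.15, adjusted p = 0.000912), and it also rose in RNA (0.50 ± 0.13, adjusted p = 0.0367). The MYC partner MAX rose (0.60 ± 0.18), while MYC itself, at 359 and 347 CPM against 199 to 407 CPM, was not called. Lower at 24 h were SLC3A2 (−0.79), DOHH (−0.74), which completes hypusine, and the salvage enzymes ENOPH1 (−0.60) and ADI1 (−0.46). SLC3A2 also fell in RNA (−0.86 ± 0.19, adjusted p = 0.0124). MTAP, the phosphorylase that clears the by-product of spermidine and spermine synthesis, had 0 or 1 count in each of the 10 ER-Src footprint libraries, against 47 to 202 counts in each BJ one.

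Over the 16 cycloheximide libraries, with each model centred on its own mean, the members did not form one pattern. Pearson r of log2 CPM between members ran from −0.78 (SMS and SAT1) to 0.77 (AMD1 and AZIN1). Among 5468 candidate genes, the 3 most like SAT1 were ACSL1 (r = 0.93), SEPT9 (0.91) and EPAS1 (0.90). Those most like SRM were GPD2, HINT1 and EIF2B1 (r = 0.94 each), and those most like SMS were DERA, RQCD1 and IPO4 (0.94 each). ODC1 was closest to DDX3X (r = 0.89), SDE2 (0.84) and DIP2B (0.81), and OAZ1 to BLOC1S1 (0.89), PCNP (0.87) and DGUOK (0.87). OAZ2 was closest to DHPS (0.84), CDKN3 (0.82) and NDUFB3 (0.81). AMD1 was closest to HNRNPH1 (0.85), MFAP1 (0.78) and AZIN1 (0.77), and AZIN1 to NUP160 (0.81), MAPK9 (0.80) and SSFA2 (0.80). All these values share libraries and were the highest among many candidates, so they describe and do not test.

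Total counts per library were 2225844 to 3008760 for ER-Src RNA, 1334866 to 3628073 for cycloheximide and 163092 to 374359 for harringtonine. In the BJ lines they were 2071883 to 2551358, 1178012 to 2606344 and 129175 to 214806 in the same order of assays. The 7 breast epithelial markers summed to 8850 to 13695 CPM in ER-Src footprints and the 8 fibroblast markers to 10660 to 41692 CPM in BJ footprints, while leukocyte and endothelial lists stayed at or below 47.4 CPM. The coefficient of variation beyond counting noise was 1.80% between the replicates of BJ footprints. It was 13.9% in ER-Src footprints and 15.1% in ER-Src RNA, where the uninduced arm mixes 0 h and ethanol at 3 times, and in RNA that arm is the only source of the spread. ODC1, OAZ1, AMD1, SRM and SMS have named processed pseudogenes in GENCODE, so reads of these 5 could be split with a copy, and how multiply mapped reads were counted was not stated.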

How the data were processed

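Cycloheximide and harringtonine footprint libraries and RNA libraries were measured in MCF10A-ER-Src cells and in the BJ lines. Per the labels' protocols, RNA was depleted of ribosomal RNA and tagged for sequencing, and footprints came from RNase I digestion. The deposited values are read counts per transcript, 36499 in each of 36 libraries. Per the submitters' processing notes the authors used TopHat and hg19; versions and the counting program are not given in the sources used here. The 8 genes, the related genes and the marker lists were chosen with earlier results of these data known.

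From these counts, log2 changes, SE and two-sided p-values were computed with edgeR 4.0.16 (quasi-likelihood, TMM scaling, minimum count 10 and total 15) in R 4.3.3. Fits ran over all genes, with Benjamini-Hochberg adjustment and a threshold of 0.05. A lone RNA library was assumed to vary like the other libraries of its fit, which for ER-Src RNA are the uninduced ones of differing time and treatment. Loading was an interaction term in 1 fit over both models. BJ RNA lines have 1 library each, so their ratios carry 95% exact intervals and no test. Such intervals cover counting error only. The scripts were tested on simulated data. The 8 members entered every comparison. By the rule set for naming, related genes were counted as groups and named where called, except between assays, where a few stand for the rest, and for each member the 3 genes with the highest Pearson r were named. Alternatives were RLE scaling, no filter on low counts, DESeq2 1.42.0, another transcript per gene, a replicate block, other uninduced arms, other fits and leaving out each library. In footprints, deviations of same-numbered replicates correlated above 0.1 in 5 of 6 pairs of ER-Src arms (0.04 to 0.26). In BJ footprints they did so in 0 of 3 pairs of lines (−0.01 to 0.03). The main fits left the replicate number out in both models, so any shift shared by a replicate number in ER-Src stays in their estimates. Replicate libraries differed beyond sampling noise and were counted separately, but to unlike degrees. A chi-square of the counts per gene, which is near 1 under sampling noise alone, was 1.09 to 1.18 for BJ cycloheximide pairs. For ER-Src cycloheximide pairs it was 3.83 to 5.27. The BJ pairs thus varied little beyond counting, and their small SE and p-values may measure technical spread only.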

Additional observations from a re-analysis of the deposited data

Results flagged for a closer look

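One value stood apart in 16 groups examined, where chance marks about 1 group in 20. Each group was 1 member in footprints or RNA over the 4 uninduced ER-Src libraries, and no other arm or line was examined. SAT1 footprints were 47.9 CPM in the 24 h ethanol library of ER-Src cells, against 22.4 to 24.6 CPM in the other uninduced libraries, and the gap took 0.911 of the group's range. SAT1 RNA was also highest in ethanol at 24 h, at 190.4 CPM. Tamoxifen at 24 h gave 107 and 116 CPM of footprints.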

How the results depend on the processing

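The footprints to RNA calls of all 8 members held in every alternative, as did SAT1 and ODC1 RNA at 24 h, SAT1 footprints at 24 h, and ODC1 and SMS for ELR over EL. Of the member values, 464 called ones kept direction and side over distinct alternatives and 39 lost the call. Of those not called, 619 kept both, 35 changed sign and 9 became called. With DESeq2 the counts of genes called were 2461 for EL over EH footprints (1 member), 1822 for ELR over EL, 12 for 1 h footprints, 4 for 1 h RNA, 447 for 24 h RNA and 26 for EL over EH loading, and ELR over EH footprints had 1 member. With the fit over all 16 cycloheximide libraries they were 2608 (0 members; unadjusted p under 0.05 gave 3 in the BJ fit, DESeq2 1) and 1781, with 1 member for ELR over EH, where OAZ2 was −0.028. Without a filter they were 22 and 175 for 1 h and 4 h footprints, 6 and 35 for RNA, 1 for 4 h loading, and 40, 5 and 128 for loading of EL over EH, ELR over EL and ELR over EH. There OAZ2 was 0.011 for EL over EH and AZIN1 0.0035 for ELR over EL, which was 0.00028 with RLE scaling. With ethanol libraries only as uninduced cells, counts were 56 for 4 h footprints, 0 and 10 for 1 h and 4 h RNA, AMD1 RNA at 24 h was −0.035 and SRM loading −0.074. With the time-matched ethanol library, chosen after seeing the data, counts were 0, 0 and 789 (1 member) for footprints at 1, 4 and 24 h and 0 and 3 for RNA at 1 and 4 h. There AMD1 footprints at 24 h were 0.028, and loading was −0.031 for OAZ1 and −0.51 for SRM. Fits within a model called 49 genes for 24 h loading, 743 for EL over EH (2 members), 329 for ELR over EL (2) and 829 for ELR over EH (1). ODC1 loading for ELR over EH was −0.11 there, −0.094 with DESeq2 and −0.095 with RLE scaling. With the replicate block 4 genes were called in 1 h footprints and AMD1 at 24 h was 0.051. The block moved no other count by over 1.5 times. The cause of these shifts was not tested.

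Leaving out 1 library gave 1 to 2 members for EL over EH footprints, 0 to 6, 9 to 82 and 703 to 1960 genes for footprints at 1, 4 and 24 h (1 to 4 members at 24 h), and 0 to 14, 4 to 99 and 364 to 1595 for RNA (2 to 4 members at 24 h). The highest 24 h counts were those without the 24 h ethanol library. Loading had 0 to 0 genes for EL over EH and 14 to 26 for ELR over EH. Ranges that crossed zero in footprints were −0.040 to 0.023, −0.076 to 0.13 and −0.076 to 0.13 for OAZ2 (EL over EH, ELR over EL, ELR over EH), −0.032 to 0.33 and −0.29 to 0.068 for AMD1 (ELR over EL, ELR over EH) and −0.20 to 0.13 at 24 h, −0.096 to 0.064 for AZIN1 and −0.14 to 0.0019 for SRM (ELR over EL). In 24 h RNA they were −0.21 to 0.32 for OAZ2 and −0.035 to 0.099 for AMD1. In loading they were −0.060 to 0.46 for OAZ2 and −0.30 to 0.061 for AMD1 at 24 h, −0.032 to 0.19, −0.35 to 0.031 and −1.302 to 0.25 for OAZ2, AMD1 and SAT1 (ELR over EL), and −0.11 to 0.17 and −0.54 to 0.93 for ODC1 and SAT1 (ELR over EH). Depth limits SAT1 and harringtonine values in BJ and OAZ2 and SRM RNA, and single RNA libraries limit every loading value.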
